A study of Mus musculus with 8 samples.

Results

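Hlf, Mecom, Mllt3, Tcf15 and Nkx2-3, genes known as regulators of hematopoietic stem cells, were followed in c-Kit+ Lin- (KL) cells of mouse bone marrow. They were chosen by name, as 5 of the 27998 genes in the deposited count table, of which 19020 had at least 1 unique molecular identifier (UMI, a tag that counts each captured transcript once). KL cells were sorted as CD117 positive and negative for CD3, CD4, CD8, CD45R, CD11b, TER119 and GR1, from female B6 mice of 3 to 4 months. The SPF group stayed under specific-pathogen-free housing, and the CVT group had been co-housed in a conventional facility for 1 month. Each group had 10 mice in 4 pools of 2 or 3 mice, and 1 library was made from each pool, so a pool mean cannot show how single mice differ. Pools 1, 2, 7 and 8 were SPF and pools 3, 4, 5 and 6 were CVT, read from the number that ends each cell name, and no other label ties a cell to its pool.

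Long-term hematopoietic stem cells (LTHSC) sit at the top of blood formation, rarely divide and keep their identity through a small set of nuclear regulators that are shut down as progeny commit to a lineage. Hlf encodes a PAR bZIP transcription factor, Mecom (the Evi1 and Mds1 locus) a zinc finger transcription factor, Tcf15 a bHLH transcription factor, and Nkx2-3 a homeobox transcription factor also known from spleen and gut development. Mllt3 (Af9) encodes a YEATS domain protein that reads acylated histones and belongs to transcription elongation and Dot1l complexes. Mllt3 is known both from stem cell maintenance and from the erythroid and megakaryocytic branch, while Mecom and Mllt3 are also known as partners of leukemia fusions.

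RefSeq promoter windows (GRCm38.p6, 250 bases before to 50 after a gene start) were found for 4 of the 5 genes, 6 windows in all, and not for Tcf15. The 4 windows below are shown because Hlf, Mecom and Nkx2-3 had nearly the same pattern across clusters of cells in the data below, while Mllt3 did not. They lie at chr11:90390868-90391167 (minus strand) for Hlf, chr3:30509710-30510009 (minus strand) for the upstream start of Mecom, chr19:43612075-43612374 (plus strand) for Nkx2-3 and chr4:88033358-88033657 (minus strand) for the upstream start of Mllt3. Capitals mark GC boxes (GGGCGG, or CCGCCC on the other strand) and the CRE core (TGACGT, or ACGTCA).
Hlf: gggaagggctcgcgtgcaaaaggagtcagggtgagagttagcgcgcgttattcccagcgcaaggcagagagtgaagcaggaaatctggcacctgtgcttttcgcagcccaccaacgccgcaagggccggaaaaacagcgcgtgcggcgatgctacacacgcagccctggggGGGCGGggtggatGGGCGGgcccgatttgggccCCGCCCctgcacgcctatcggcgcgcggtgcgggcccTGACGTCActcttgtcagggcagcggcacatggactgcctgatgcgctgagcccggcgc
Mecom: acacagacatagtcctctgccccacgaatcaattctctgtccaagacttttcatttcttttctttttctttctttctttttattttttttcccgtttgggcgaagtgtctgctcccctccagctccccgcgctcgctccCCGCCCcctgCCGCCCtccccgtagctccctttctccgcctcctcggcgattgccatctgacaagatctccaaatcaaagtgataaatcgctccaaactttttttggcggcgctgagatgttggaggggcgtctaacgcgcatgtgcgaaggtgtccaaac
Nkx2-3: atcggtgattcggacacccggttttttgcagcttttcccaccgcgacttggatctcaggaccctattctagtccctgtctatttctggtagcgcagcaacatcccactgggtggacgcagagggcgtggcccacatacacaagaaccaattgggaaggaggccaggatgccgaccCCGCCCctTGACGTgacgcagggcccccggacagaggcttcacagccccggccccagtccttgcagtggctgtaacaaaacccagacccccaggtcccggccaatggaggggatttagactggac
Mllt3: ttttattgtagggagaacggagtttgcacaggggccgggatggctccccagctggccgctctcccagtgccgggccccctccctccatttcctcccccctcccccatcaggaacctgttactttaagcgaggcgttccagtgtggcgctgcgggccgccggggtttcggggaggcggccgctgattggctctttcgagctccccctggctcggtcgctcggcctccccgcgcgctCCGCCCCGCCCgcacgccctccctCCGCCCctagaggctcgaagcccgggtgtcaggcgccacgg
The Hlf window held 3 GC boxes and a CRE core that reads on both strands and overlaps itself, and the Nkx2-3 window held 1 GC box and 1 CRE core. No CRE core was found in the windows shown for Mecom and Mllt3, which held 2 and 3 GC boxes, a pair of which overlap in Mllt3. Of 32851 RefSeq windows of this length, 35.7% held a GC box and 7.51% a CRE core. GC content was 67.3% in the Hlf window, 52.0% in Mecom, 60.0% in Nkx2-3 and 70.3% in Mllt3, against a median of 52.7% over all windows. The downstream windows of Mecom and Mllt3 held neither motif. The GATA motif AGATAA was in none of the 6 windows and in 11.2% of all windows. These matches are a description of letters, and the 3' tags of this assay do not show which gene start was used.

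The table held 29891 cells, 1888 to 4845 per pool, with 19041749 to 59812346 UMIs per pool and 2759 to 49732 UMIs per cell. The cells were clustered without the 5 genes, so that their levels could not define a cluster, and 33 clusters were obtained. Clusters were called by the marker genes among their 100 leading genes, which gave 10 named states with at least 20 cells in every pool, beside the unnamed cluster 3. The LTHSC-like state was cluster 15, of 818 cells, whose leading genes held 10 LTHSC markers (among them Esam, Gng11, Ifitm1, Ly6a, Meg3, Pdzk1ip1, Procr, Sult1a1 and Trim47). Cluster 3, of 1988 cells, held 6 LTHSC markers, but none among its 10 leading genes, where an MPP marker (Adgrl4) stood, and was left without a name. No library was left out. A total of 522 barcodes occurred in more than 1 pool. Levels are given as CPM, the UMIs of a gene per 1000000 UMIs of the same cells, as the mean ± SD over 8 pools, and since each transcript gives 1 tag at its 3' end they are compared within a gene only.

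All 5 genes had their highest level in LTHSC-like cells. Hlf measured 356 ± 56.3 CPM there (n = 8), Mecom 139 ± 16.2, and Nkx2-3 98.7 ± 15.5. The LTHSC-like range did not overlap that of the next state for Mecom, Mllt3, Tcf15 and Nkx2-3. For Hlf it did (244 to 438 CPM against 131 to 274 CPM in cluster 3), although LTHSC-like cells had the higher level within each of the 8 pools.

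By pool, LTHSC-like Hlf was 390, 366, 438 and 336 CPM in the SPF pools 1, 2, 7 and 8, and 333, 244, 384 and 359 CPM in the CVT pools 3, 4, 5 and 6. The lowest value was in CVT pool 4 and the highest in SPF pool 7, and the groups overlapped. From LTHSC-like cells the order of Hlf ran through cluster 3 (212 ± 44.2 CPM), LMPP-like cells (87.7 ± 21.0, lymphoid-primed progenitors), MPP-like cells (58.1 ± 13.7, multipotent progenitors) and MkP-like cells (20.5 ± 3.69, megakaryocyte progenitors) to MEP-like cells (3.04 ± 0.887, megakaryocyte and erythroid progenitors). LMPP-like and MPP-like ranges overlapped, with the LMPP-like level higher in 8 of 8 pools. That order holds for the whole LMPP-like state only. The mean of its cluster 9, led by Dntt, was below the MPP-like mean (see Other observations). From MkP-like cells downward each neighbour's range overlapped the next.

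Mecom followed the same upper order, with 62.0 ± 8.71 CPM in cluster 3, 25.8 ± 8.83 in LMPP-like, 22.1 ± 7.45 in MPP-like and 15.7 ± 2.37 in MkP-like cells. The last 3 overlapped, and the lowest state was again MEP-like (0.929 ± 0.453). Nkx2-3 gave 34.5 ± 4.50 CPM in cluster 3 and 20.5 ± 4.08 in LMPP-like cells, which overlapped in range although cluster 3 was higher in 8 of 8 pools. Below them its MkP-like (6.48 ± 2.29) and MPP-like (6.15 ± 3.30) levels did not differ beyond their spread, and the GMP-like, MEP-like and Monocyte-like levels were between 0.262 and 0.353 CPM. A single antisense gene listed in the table, Mecomos, overlaps Mecom on the other strand and had 40 UMIs, against 3600 for Mecom.

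**Figure D1:**
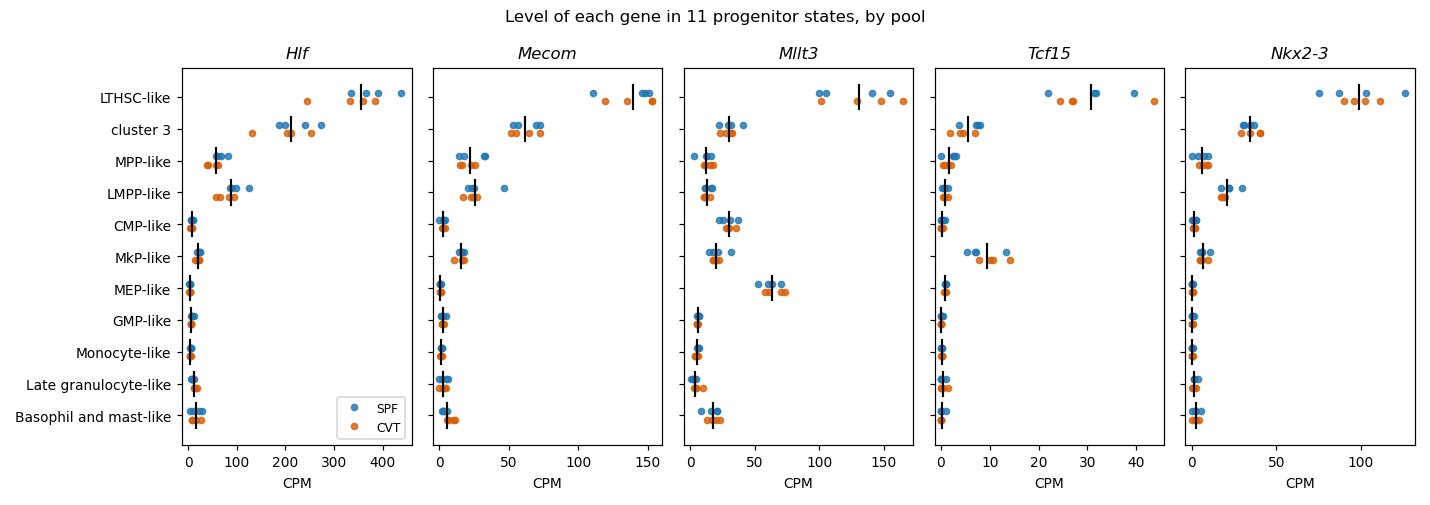
Level of each gene (CPM, horizontal axes from 0, each with its own scale) in 11 progenitor states, with a point for each of 8 pools (SPF blue, CVT orange) and a bar for their mean. LTHSC-like cells had the highest mean for all 5 genes, and Mllt3 also stood at 63.8 CPM in MEP-like cells.

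Mllt3 differed from Hlf, Mecom and Nkx2-3 in where its second level lay. It measured 131 ± 25.6 CPM in LTHSC-like cells (100 to 165) and 63.8 ± 7.18 CPM in MEP-like cells (52.7 to 73.7), without overlap. In MEP-like cells the values were 70.3, 63.5, 52.7 and 60.3 CPM in SPF pools 1, 2, 7 and 8, and 61.1, 70.5, 58.1 and 73.7 CPM in CVT pools 3, 4, 5 and 6. The 2 groups overlapped, and the lowest MEP-like pool was still above the highest pool of every lower state. CMP-like cells (common myeloid progenitors, 30.03 ± 4.86 CPM) and cluster 3 (29.99 ± 6.05) did not differ beyond their spread. GMP-like, Monocyte-like and Late granulocyte-like cells had 4.16 to 5.80 CPM.

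Among the MEP-like clusters Mllt3 was at 104 ± 24.2 CPM in cluster 29, led by the globin genes Hba-a1 and Hbb-bs, at 79.2 ± 8.83 in cluster 8, at 72.3 ± 10.2 in cluster 12, at 45.9 ± 8.97 in cluster 18 and at 37.8 ± 2.20 in cluster 2. Clusters 8, 12 and 29 lie close together and overlap in range. The mean of cluster 29 lay within the LTHSC-like range of 100 to 165 CPM, so the gap holds for the whole MEP-like state only. In these 5 clusters Hlf was between 1.22 and 8.10 CPM.

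Tcf15 was the sparsest of the 5 genes, with 613 UMIs in 547 cells. Its LTHSC-like level was 30.8 ± 7.47 CPM, from 142 UMIs, 7 to 44 per pool. By pool it was 22.0, 31.8, 39.6 and 31.4 CPM in SPF pools 1, 2, 7 and 8 and 27.0, 43.6, 24.4 and 27.0 CPM in CVT pools 3, 4, 5 and 6, so the groups overlapped. The next level was in MkP-like cells (9.46 ± 3.12), then in cluster 3 (5.50 ± 2.25), and these overlapped. Within the MkP-like state the level was 17.7 ± 5.39 in cluster 13, led by Pf4, Gp1bb and Ppbp, and 4.32 ± 3.16 to 6.21 ± 2.22 in the other 3 clusters, of which only cluster 23 (up to 10.7 CPM) reached into the range of cluster 13 (from 10.5 CPM). GMP-like cells held 3 Tcf15 UMIs in 2769 cells.

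Because the states differ in size, most transcripts of a gene need not come from the state with the highest level. LTHSC-like cells were 2.79 ± 1.22% of KL cells and gave 14.99 ± 4.19% of Hlf UMIs, 17.3 ± 5.49% of Mecom, 20.7 ± 5.98% of Nkx2-3, 23.6 ± 8.30% of Tcf15 and 6.80 ± 3.07% of Mllt3 (n = 8 pools). LMPP-like cells gave the largest part of Hlf UMIs (34.4 ± 3.53%), Mecom (29.3 ± 4.85%) and Nkx2-3 (40.5 ± 5.64%). MEP-like cells gave 61.2 ± 9.41% of Mllt3 UMIs from 18.9 ± 3.68% of cells. For Tcf15 the MkP-like state gave the most over the 8 pools (35.8 ± 10.5%). In CVT pools MkP-like cells gave a mean of 44.1% and LTHSC-like cells 16.8%, and in SPF pools 27.5% and 30.3%. The order of the SPF means rests on SPF pool 7, with 8 MkP-like and 15 LTHSC-like UMIs. In SPF pools 1, 2 and 8 the UMIs were 7 and 7, 23 and 22, and 52 and 44. The difference between the groups was not tested.

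**Figure D2:**
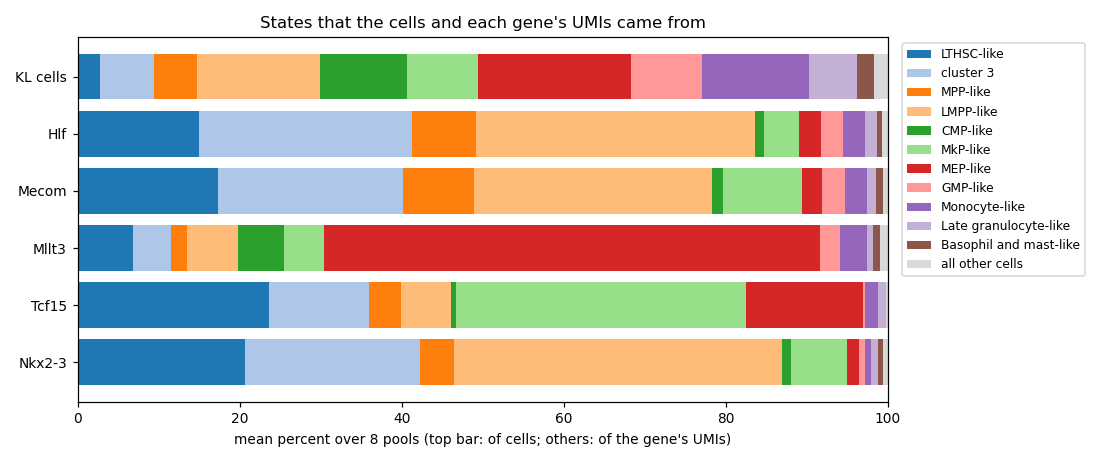
Percent of cells (top bar) and of each gene's UMIs (lower bars) in each state, as means over 8 pools. MEP-like cells (red) hold 61.2% of Mllt3 UMIs, and LTHSC-like cells (dark blue) are 2.79% of cells but hold 14.99% to 23.6% of the UMIs of Hlf, Mecom, Tcf15 and Nkx2-3.

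Shares of cells with a UMI were taken after each cell had been thinned to 2759 UMIs, because depth differs between states and pools. In LTHSC-like cells, with a median of 5228.5 UMIs before thinning, 58.1 ± 6.02% had an Hlf UMI, 31.4 ± 6.50% a Mecom UMI, 27.9 ± 3.23% an Mllt3 UMI, 22.9 ± 3.38% an Nkx2-3 UMI and 8.13 ± 1.35% a Tcf15 UMI (n = 8). GMP-like cells (granulocyte and monocyte progenitors, median 15755 UMIs), which these genes are not known to mark, gave 1.72 ± 0.638%, 1.03 ± 0.719%, 1.32 ± 0.833%, 0% and 0%. Without thinning the LTHSC-like shares were 81.3%, 51.6%, 41.9%, 37.9% and 15.1% in the same gene order. In MEP-like cells, 14.5 ± 1.77% had an Mllt3 UMI after thinning and 50.01% before it, at a median of 13805 UMIs.

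A thinned LTHSC-like cell held a mean of 1.49 ± 0.0980 of the 5 genes, against 0.750 ± 0.0924 in cluster 3 and 0.406 ± 0.0863 in LMPP-like cells. No gene was seen in 17.0 ± 2.32% of LTHSC-like cells, and 3 or more were seen in 16.1 ± 3.78%. Of the 216 KL cells with 3 or more, 126 (58.3%) were LTHSC-like, 41 LMPP-like and 39 in cluster 3, and 3 LTHSC-like cells, but no cell of the other 10 states, held the whole set. Within LTHSC-like cells each pair was seen together about as often as the product of its shares: the ratio over pools went from 0.981 ± 0.249 for Mecom with Nkx2-3 to 1.34 ± 0.772 for Mllt3 with Tcf15. For the most often detected pairs it was 1.03 ± 0.236 (Hlf with Mecom, 166 cells) and 1.13 ± 0.146 (Hlf with Mllt3, 139 cells), each above 1 in 6 of 8 pools.

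Over the 32 clusters with at least 50 cells, Pearson's r of log2(CPM + 1) was 0.96 for Hlf with Nkx2-3, 0.93 for Hlf with Mecom and 0.91 for Mecom with Nkx2-3. For Hlf with Mllt3 it was 0.22, and for Tcf15 it ran from 0.43 (Mllt3) to 0.72 (Mecom). These values describe clusters that share libraries and were made from the same cells, and they are not replicates. Among 8129 genes with at least 20 CPM in a cluster, the 5 with a pattern most like that of Hlf were Nkx2-3 (r = 0.96), Vldlr (0.95), Emcn, Mecom and Gm20467, and those of Nkx2-3 were Hlf, Gm20467, Vldlr, Mecom and Emcn. Each was therefore the first match of the other. Vldlr encodes a lipoprotein receptor and Emcn the sialoglycoprotein endomucin.

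The genes most like Mecom were Casp12 (r = 0.96), Efcc1, Hlf, F11r (junctional adhesion molecule A) and Vldlr. Among the 5 genes most like Tcf15 were Trpc6 (r = 0.91, a cation channel), Gucy1a3 (a guanylate cyclase subunit), Fhl1 and Esam, the last being among the LTHSC markers. The genes most like Mllt3 were Fam213a (r = 0.94), Stard10, Car2 (carbonic anhydrase, an MEP marker here), Klhl12 and Nfia. None of the matches of Mllt3 was shared with another of the 5 genes.

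**Figure D3:**
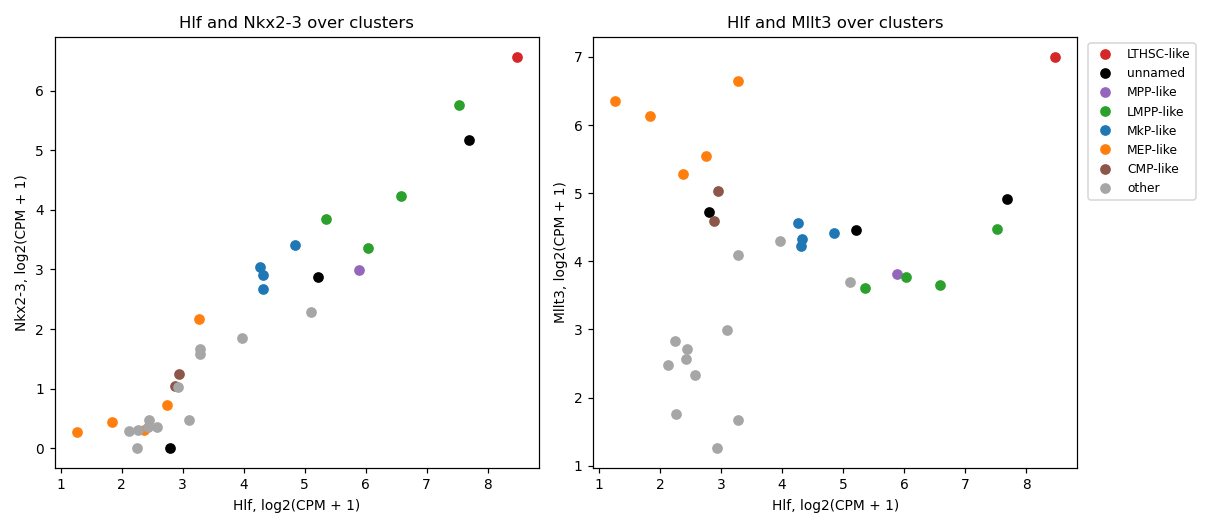
Level of Nkx2-3 (left) and Mllt3 (right) against Hlf over 32 clusters, in log2(CPM + 1) of pooled cells, colored by state. Clusters with more Hlf mostly have more Nkx2-3 (r = 0.96), while the MEP-like clusters (orange) have high Mllt3 at low Hlf (r = 0.22).

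Listed relatives and partners of the 5 genes are given in pooled LTHSC-like cells against all KL cells, each within its own gene. Of the PAR bZIP relatives of Hlf, Dbp measured 20.3 CPM in pooled LTHSC-like cells and 10.7 in all KL cells, and Tef 12.7 and 6.93, while Nfil3, a bZIP repressor of the same sites, measured 1.94 and 4.01. Prdm16, the closest relative of Mecom, measured 13.6 against 2.46 CPM, whereas the corepressor gene Ctbp1 measured 117 against 126. Mllt10, a Dot1l complex partner of Mllt3, measured 94.0 against 77.6 CPM, and Dot1l 14.7 against 19.6. For Tcf15, the E protein genes Tcf4 and Tcf12 measured 113 against 65.0 CPM and 51.3 against 33.5, while Tcf3 measured 59.5 against 74.0. The inhibitor genes Id1, Id2 and Id3 measured 2.16 against 5.94, 7.76 against 16.1 and 0.431 against 1.22, and Id4 0.216 against 0.0119. These levels are pooled over cells, with no test.

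The comparison of CVT with SPF pools asks whether conventional co-housing went with other levels of these regulators. In the sum over all KL cells no gene passed an adjusted p of 0.05 in edgeR's quasi-likelihood test (0 of 13092 genes, 0%), against 15 in DESeq2, and 921 genes had an unadjusted p under 0.05. None of the 5 genes passed either test. Hlf had a log2 change (CVT over SPF) of -0.59 (SE 0.27, adjusted p = 0.699), Mecom -0.45 (SE 0.22, adjusted p = 0.700), Nkx2-3 -0.50 (SE 0.17, adjusted p = 0.676), Tcf15 -0.35 (SE 0.25, adjusted p = 0.790) and Mllt3 0.06 (SE 0.14, adjusted p = 0.941).

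Over all KL cells Nkx2-3 was 7.25, 7.04, 7.37 and 9.72 CPM in SPF pools 1, 2, 7 and 8 and 4.74, 4.08, 6.66 and 6.21 CPM in CVT pools 3, 4, 5 and 6. All CVT pools were below all SPF pools, as they were for 688 of the 13092 genes tested (5.26%), so Nkx2-3 was 1 of many. Hlf was 38.4, 34.9, 49.2 and 42.9 CPM in the same SPF pools and 19.6, 14.7, 36.4 and 36.3 CPM in the CVT pools. CVT pools 3 and 4 were far below the rest, and CVT pools 5 and 6 overlapped the SPF range. For Mecom the CVT values were 7.21, 5.83, 12.9 and 11.9 CPM against 12.4 to 14.4 CPM in SPF, with the same 2 pools low.

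The labels number the mice, and pools 1 to 4 came from the lower-numbered mice and pools 5 to 8 from the higher-numbered ones, with 2 pools of each group in each set. Within the first set the log2 ratio of means, CVT over SPF, was -1.10 for Hlf, -1.02 for Mecom and -0.70 for Nkx2-3, and within the second it was -0.34, -0.11 and -0.41. Both CVT pools were below both SPF pools in each set for Hlf and Nkx2-3, and overlapped them in the second set for Mecom. The share of all genes with this order in both sets was not counted, so it is not known how unusual it is. The interaction of housing with set had a log2 value of 0.83 for Mecom (SE 0.16, unadjusted p = 0.000476, adjusted p = 0.534) and 0.70 for Hlf (SE 0.17, unadjusted p = 0.00265, adjusted p = 0.534) in edgeR, and 0 of 13092 genes passed (0%), with 1188 at an unadjusted p under 0.05. With the set as a block, Nkx2-3 had an adjusted p of 0.108 and Hlf of 0.131.

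In LTHSC-like cells 0 of 5355 genes passed in edgeR (0%), with 301 at an unadjusted p under 0.05 and 0 in DESeq2. The log2 changes there were -0.11 for Hlf (SE 0.12), 0.05 for Mecom (SE 0.13), 0.20 for Mllt3 (SE 0.15), -0.05 for Tcf15 (SE 0.25) and 0.16 for Nkx2-3 (SE 0.16), with adjusted p-values from 0.975 to 0.994. Nkx2-3 was 126, 75.1, 103 and 87.1 CPM in SPF pools 1, 2, 7 and 8 and 111, 95.9, 102 and 89.8 CPM in CVT pools 3, 4, 5 and 6, so the CVT pools lay within the SPF range. The interaction with set passed for 3 of 5355 genes (0.056%), none of them among the 5. Stromal marker genes summed to 226 CPM in 1 CVT pool of LTHSC-like cells and to at most 4.33 CPM in the SPF pools. Over the LTHSC-like cells of all pools, 6 of the 7 genes were seen (Col3a1 at 0). Endothelial markers summed to at most 17.4 CPM in any pool, with Cdh5 and Stab2 at 0, and the part of either list in these values was not tested.

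**Figure D4:**
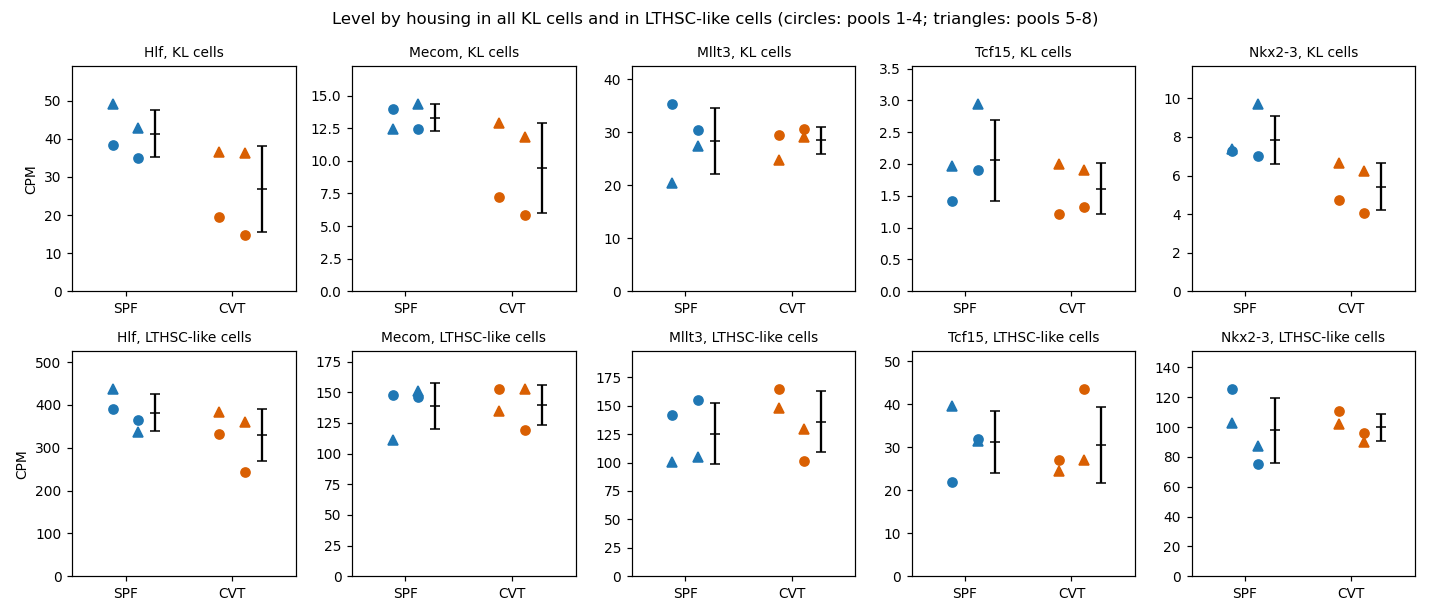
Level of each gene (CPM, axes from 0) in all KL cells (top) and in LTHSC-like cells (bottom) by housing, with a point for each pool (circles pools 1 to 4, triangles pools 5 to 8) and the mean ± SD of 4 pools beside them. In KL cells the CVT pools of Nkx2-3 (4.08 to 6.66 CPM) all lie below the SPF pools, and in LTHSC-like cells they lie within the SPF range.

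LTHSC-like and GMP-like shares of KL cells did not overlap between the groups, those of the other states did, and none was tested. LTHSC-like cells were 1.97 ± 0.778% of KL cells in CVT pools (1.22% to 2.76%) and 3.61 ± 1.03% in SPF pools (2.91% to 5.14%). GMP-like cells were 11.1 ± 3.04% and 6.37 ± 0.786%. The LTHSC-like gap was not seen in every clustering. At a resolution of 1 the LTHSC-like state was larger, with 2927 cells against 818. It then held 459 of 4341 cells in CVT pool 5 and 177 of 1888 in SPF pool 1, and the groups overlapped. With the 5 genes allowed in clustering (1117 LTHSC-like cells) the groups did not overlap. The highest CVT share was 164 of 4198 cells in pool 6, and the lowest SPF share 77 of 1888 in pool 1. For a further comparison, a gene's UMIs were taken per 10000 UMIs of each cell and averaged over cells. Each pool's cluster means were then weighted by 1 common mix of clusters. The log2 ratio of these averages (CVT over SPF) went from -0.44 to 0.00 (0.00229) for Nkx2-3 and from -0.41 to -0.11 for Mecom. It went from -0.56 to -0.25 for Hlf, from -0.37 to -0.05 for Tcf15 and from -0.10 to -0.04 for Mllt3. None of these ratios passed an exact permutation test over the 70 regroupings of 8 pools (two-sided, lowest adjusted p = 0.143 as measured and 1 with the common mix). This weighting was chosen after the data were seen.

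The share of thinned KL cells with an Nkx2-3 UMI was 2.05 ± 0.206% in CVT pools and 3.11 ± 0.438% in SPF pools, with an exact permutation p of 0.0286, the smallest that 70 regroupings allow, and an adjusted p of 0.286 over 10 tests. For Hlf the shares were 8.39 ± 2.72% and 11.5 ± 1.27% (exact p = 0.171), and for Mecom 3.58 ± 1.02% and 4.57 ± 0.742% (exact p = 0.143). In LTHSC-like cells, Hlf was seen in 56.0 ± 7.66% of CVT and 60.3 ± 3.72% of SPF cells (exact p = 0.400). The other LTHSC-like shares differed by less than 5 percentage points, and none of the 10 tests passed the adjusted threshold.

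Outside LTHSC-like cells, 0 genes were called in MPP-like (0% of 8578), LMPP-like (0% of 10704) and MEP-like cells (0% of 10603), in cluster 3 (0% of 8786) and in MkP cluster 13 (0% of 7550), by edgeR, with 550, 599, 539, 450 and 275 genes at an unadjusted p under 0.05. DESeq2 called 1 gene each in LMPP-like and MEP-like cells and 0 in the other 3. Hlf had log2 changes of -0.29 (SE 0.15), -0.34 (SE 0.14), -0.15 (SE 0.27), -0.09 (SE 0.14) and -0.44 (SE 0.29) in these populations, all negative and none passing. Mllt3, whose main source is the MEP-like state, had 0.11 there (SE 0.10, adjusted p = 0.905). Tcf15 had -0.62 (SE 0.36, adjusted p = 0.987) in cluster 3 and 0.24 (SE 0.29, adjusted p = 0.999) in MkP cluster 13.

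A list of 40 other stem and progenitor regulators was read from the same fits. In KL cells all 40 were tested and 0 passed in either direction, with a median log2 change of -0.07 against -0.01 over all genes. Of the 40, 30 were below 0, and the share of all genes below 0 is not given here. The lowest were Hmga2 (-0.68, SE 0.12, adjusted p = 0.507), a chromatin protein of fetal stem cells, Mycn (-0.36) and Hoxa10 (-0.32), and the highest Cebpa (0.20), the granulocytic regulator, Nfia (0.20) and Gfi1b (0.11). Hmga2 was the exception under DESeq2, with an adjusted p of 0.00216.

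In LTHSC-like cells 34 of the 40 were tested and 0 passed, with a median of 0.05 against 0.01 over all genes and 21 of the 34 above 0. Zfx (-0.68), Hoxa10 (-0.28) and Nfix (-0.25) were lowest and Egr1 (0.45), Nfia (0.37) and Hoxa9 (0.34) highest. In MPP-like cells Hmga2 (-0.51), Gfi1b (-0.35) and Nfix (-0.15) were lowest and Cdkn1b (0.51), Gata2 (0.32) and Erg (0.27) highest. Of the listed regulators tested, 24 of 37 were above 0 in MPP-like and 25 of 39 in LMPP-like cells. By contrast, 25 of 36 were below 0 in MEP-like cells and 21 of 34 in MkP cluster 13. None of the 12 partner genes of Mllt3, 7 of Mecom and 3 relatives of Hlf passed in KL cells, nor did the 6 partner genes of Tcf15 that were tested.

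LTHSC-like cells were then split by whether a thinned cell had an Mllt3 UMI, and the UMIs of both parts were summed in each pool, with the pool as a term. Of 1369 genes tested, 20 passed in edgeR (1.46%), 14 higher and 6 lower in the 221 Mllt3-positive than in the 597 Mllt3-negative cells, with 162 at an unadjusted p under 0.05. A set of 10 of the 20 changed in the same direction in all 8 pools. The ribosomal protein genes Rps27 (0.18), Rpl17 (0.16), Rps14 (0.14) and Rpl37a (0.14) were higher, each in 8 of 8 pools. Plac8, an MPP marker here, was 415 ± 176 against 622 ± 141 CPM (log2 change -0.62, SE 0.11, adjusted p = 0.000479), and H2afy (a macroH2A histone, -0.55), Cmtm7 (-0.46), Gmfg (-0.45) and Ctla2a (-0.34) were lower too.

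DESeq2 called 0 of these genes, and without the pool term edgeR called 1. A second random thinning gave 27 calls, of which 11 were shared with the 20. Leaving out SPF pool 2 left 9 calls and leaving out CVT pool 4 left 11, all of them among the 20. The calls are therefore given with that reserve. Hlf was higher in Mllt3-positive cells in 8 of 8 pools, 421 ± 55.4 against 340 ± 67.2 CPM, with a log2 change of 0.28 (SE 0.11) that did not pass (adjusted p = 0.229), and Mecom had 0.42 (SE 0.17, adjusted p = 0.240).

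**Figure D5:**
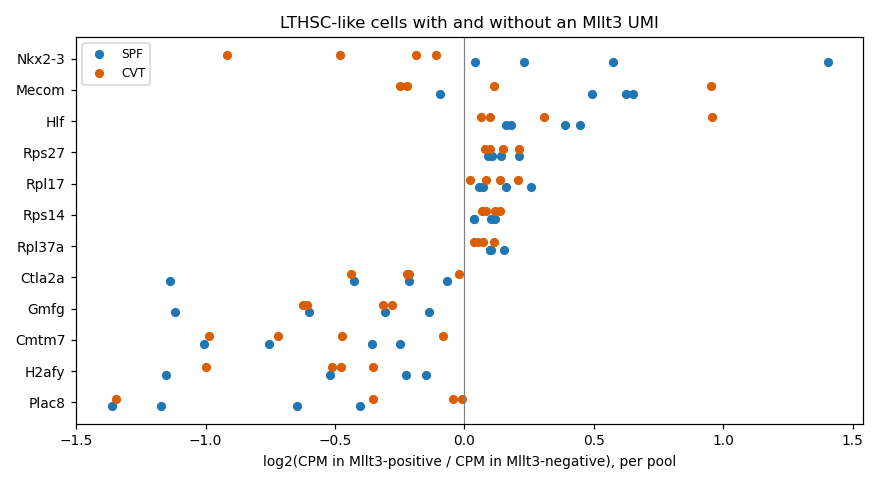
Log2 ratio of CPM in Mllt3-positive over Mllt3-negative LTHSC-like cells, with a point for each of 8 pools (SPF blue, CVT orange), for 9 called genes that changed one way in all pools and for Hlf, Mecom and Nkx2-3. All points of Hlf and the 4 ribosomal protein genes lie above 0, while those of Nkx2-3 lie above 0 in SPF pools and below 0 in CVT pools. The Nkx2-3 points rest on 211 UMIs over all 8 pools.

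Split by Hlf in the same way (477 positive and 341 negative cells), 0 of 1308 genes passed (0%), with 74 at an unadjusted p under 0.05 and 0 in DESeq2. Mecom was 161 ± 58.7 against 116 ± 37.8 CPM (log2 change 0.58, SE 0.18, unadjusted p = 0.00201, adjusted p = 0.437), higher in 6 of 8 pools. Mllt3 was 168 ± 39.6 against 111 ± 43.0 CPM (log2 change 0.41, SE 0.17, adjusted p = 0.777), higher in 7 of 8 pools.

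Split by Mecom (260 positive and 558 negative cells), 2 of 1413 genes passed in edgeR (0.142%) and 0 in DESeq2. Plac8 was lower in positive cells (log2 change -0.50, SE 0.10, adjusted p = 0.000540), in 6 of 8 pools. Hbb-bs, a globin gene, was called higher (1.49, SE 0.22, adjusted p = 6.86e-07), but 51.2% of its UMIs came from 1 cell and it was higher in 2 of 8 pools. Leaving out SPF pool 8 left 0 calls, and leaving out CVT pool 5 or 6 or SPF pool 2 or 7 left 1. None of the other 4 genes passed in any of the 3 splits. The filter on low counts left Tcf15 out of the edgeR fits, and in DESeq2 it had log2 changes of 0.29 in the split by Hlf, 0.19 by Mecom and 0.78 by Mllt3, none of which passed (lowest adjusted p = 0.999).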

How the data were processed

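Single-cell RNA-seq (10x Genomics 3' kit, version 2) of sorted KL cells gave 8 libraries. The authors deposited UMI counts per gene and cell, whole numbers without normalization, and the submitters' processing notes name Cell Ranger and the build mm9 (Cell Ranger's version is not given in the sources used here). All 29891 deposited cells were used. The 5 genes and the gene lists were chosen with earlier results of these data known.

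For clustering, each cell's counts were brought to a total of 10000 and log-transformed. From 1000 variable genes without the 5 genes, 30 principal components and 30 neighbours were taken, and the Leiden method was run at a resolution of 2 (scanpy 1.11.5, leidenalg 0.10.2, Python 3.11.15). A cluster was named from at least 3 markers of a fixed list among its 100 leading genes, and left unnamed where another state had more markers among its 10 leading genes. Cluster 25, kept as MkP-like, had 1 MkP and 1 CMP marker there, and cluster 28, kept as CMP-like, had none and was led by the interferon-induced genes Ifit1 and Isg15. Both are in the levels of their states, and housing was compared in MkP cluster 13 only. Scrublet marked 92 cells (0.308%) as doublets, a share at which it cannot be taken to have worked. No doublet was removed, and leaving out the 5% of cells with most UMIs in each pool was added as an alternative.

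UMIs were summed per pool and tested with edgeR 4.0.16 (R 4.3.3; TMM, filterByExpr, glmQLFit and glmQLFTest, Benjamini-Hochberg adjustment, threshold 0.05) in all 8 pools, with DESeq2 1.42.0 as an alternative. The fits were tested on simulated data. Thinning drew 2759 UMIs, the lowest total of a cell, from each cell. Shares were compared by exact permutation tests (scipy 1.17.1). Pools are the replicates, and intervals from counts of UMIs cover counting error only. Named genes were the 5 genes, the 5 most like each over clusters, the 3 listed regulators with the largest change in each direction, and in the split cells up to 10 called genes in each direction that changed one way in all 8 pools. Values of some genes under this rule are not reported here. Genes outside this rule were named with the splits by Mecom after their values were seen. Promoter windows are from RefSeq (GRCm38.p6), matched by symbol. The build behind the counts could not be checked, so no coordinate was joined to the data.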

Additional observations from a re-analysis of the deposited data

Results flagged for a closer look

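In 60 groups of 4 pools (5 genes, 6 populations and both housing groups), 4 single pools lay far from the other 3 by Dixon's 95% critical value, which chance meets in about 1 in 20 groups. SPF pool 8 had 9.72 CPM of Nkx2-3 in KL cells against 7.04 to 7.37 CPM in the other SPF pools. SPF pool 1 had 46.3 CPM of Mecom in LMPP-like cells against 20.8 to 24.9 CPM. SPF pool 7 had 111 CPM of Mecom in LTHSC-like cells against 146 to 151 CPM. CVT pool 4 had 43.6 CPM of Tcf15 in LTHSC-like cells, from 15 UMIs, against 24.4 to 27.0 CPM.

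The log2 ratio of Nkx2-3 in Mllt3-positive over Mllt3-negative LTHSC-like cells was above 0 in all 4 SPF pools (0.04 to 1.403) and below 0 in all 4 CVT pools (-0.92 to -0.11). These ratios rest on few counts, 211 Nkx2-3 UMIs over both parts of all pools, with 16 to 57 Mllt3-positive cells per pool. The means differed by -0.99 (CVT minus SPF), with an exact permutation p of 0.0286, the smallest that 70 regroupings allow, and an adjusted p of 0.257 over the 9 pairs of genes compared in this way. This comparison was chosen after the data were seen.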

How the results depend on the processing

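None of the 5 genes passed in CVT against SPF under any alternative run in KL, LTHSC-like or MPP-like cells, and none of the share tests passed. Counts of called genes were small and moved. In KL cells they went from 0 to 15 with DESeq2 and to 4 with the pool set as a block, in LTHSC-like cells from 0 to 25 with no filter on low counts and to 1 with the 5 genes allowed in clustering, and in MPP-like cells from 0 to 32 with no filter and to 1 with the block. Leaving out each pool gave 0 in KL cells, 0 to 4 in LTHSC-like cells (4 without CVT pool 6, 1 without CVT pool 5) and 0 to 4 in MPP-like cells (4 without CVT pool 6). Hlf-positive against Hlf-negative cells gave 4 calls with another thinning draw, 3 with a gate on Procr and Ly6a (413 cells used in place of the LTHSC-like cells, of which 184 were LTHSC-like and 84 in cluster 3), 3 in unthinned cells and 0 to 3 with a pool left out (3 without SPF pool 1, 2 without CVT pool 4, and 1 without CVT pool 6 or SPF pool 7 or 8). For Mecom the 2 calls became 0 with DESeq2 and with no pool term, 4 with another draw, 10 with the gate, 4 unthinned and 0 to 2 with a pool left out (0 without SPF pool 8, and 1 without CVT pool 5 or 6 or SPF pool 2 or 7). For Mllt3 the 20 calls became 0 with DESeq2, 1 with no pool term, 54 with the gate, 63 unthinned (17 shared) and 9 to 27 with a pool left out (9 without SPF pool 2, 11 without CVT pool 4). Hlf in Mllt3-positive cells had a log2 change of 0.74 among gate cells (adjusted p = 0.00459) and 0.08 in unthinned LTHSC-like cells (adjusted p = 0.852), and Mecom had 0.23 unthinned.

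In KL cells Tcf15 went from -0.35 to -0.09 without SPF pool 8, and without CVT pool 4 Mecom went from -0.45 to -0.28 and Hlf from -0.59 to -0.39. Several values near 0 changed sign. Mllt3 in KL cells had a log2 change of -0.0356 in thinned cells and -0.00195 without the 5% of cells with most UMIs, and -0.0545 to 0.17 with a pool left out. Hlf had 0.17 in gate cells. In LTHSC-like cells at a resolution of 1, Mecom had -0.0500, Mllt3 -0.12 and Nkx2-3 -0.00645, and Tcf15 kept its sign but went from -0.05 to -0.47 (adjusted p = 0.873). With a pool left out the ranges were -0.21 to 0.00315 for Hlf, -0.0238 to 0.10 for Mecom and -0.22 to 0.0488 for Tcf15 in LTHSC-like cells, -0.33 to 0.19 for Mecom in MPP-like cells, and -0.0365 to 0.22 for Gfi1b in KL cells. Nkx2-3 had -0.0137 with another draw and -0.0176 unthinned in the Hlf split, 0.0153 with another draw and -0.20 to 0.0709 with a pool left out in the Mecom split, -0.0493 to 0.23 with a pool left out in the Mllt3 split, and 0.00229 in KL cells with the cluster mix held fixed. Differences in share (percentage points, CVT minus SPF) changed sign for Mllt3 in KL cells (0.974 unthinned, -0.760 to 0.0721 with a pool left out), for Mecom in LTHSC-like cells (-2.89 unthinned), for Hlf (5.28), Mllt3 (-2.68) and Nkx2-3 (2.26) in gate cells, and for Nkx2-3 in LTHSC-like cells with a pool left out (-2.50 to 0.858). The cause was not tested in these cases. The other thinning draw, the removal of the 5% of cells with most UMIs and the fixed cluster mix were chosen after seeing the data. When the 5 genes were allowed in clustering, 1117 cells were LTHSC-like, all 5 genes stayed highest there, and Mllt3 and Tcf15 were at 99.3 and 23.3 CPM. No paired analysis was possible because the pools of the groups share no replicate number. The splits rest on 12 to 76 Mecom-positive and 16 to 57 Mllt3-positive cells per pool.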

Other observations

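One of the Late granulocyte-like clusters, cluster 26 (314 cells, led by Retnlg, Mmp8 and Mmp9), had 29.9 ± 8.31 CPM of Hlf (n = 8 pools), 9.85 ± 6.51 CPM of Mecom and 13.6 ± 7.48 CPM of Mllt3, against 11.2 ± 4.16, 3.01 ± 2.28 and 4.16 ± 2.56 CPM in the whole state. Among LMPP-like clusters, Hlf was at 190 ± 41.5 CPM in cluster 10, where Ly6a was among the 10 leading genes, and at 42.2 ± 10.7 CPM in cluster 9, led by Dntt. Nkx2-3 was at 53.4 ± 10.4 and 14.3 ± 4.54 CPM in the same clusters, and Mllt3 at 21.6 ± 5.56 and 10.4 ± 4.79 CPM. Of the mitosis genes, Mki67 was at 8.19 CPM and Top2a at 29.5 CPM in pooled LTHSC-like cells, against 104 and 210.2 CPM in all KL cells. MEP-like cells, the second state for Mllt3, had 165 and 249.8 CPM, and MkP-like cells, the second for Tcf15, had 146 and 279.99 CPM.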
